A study of Homo sapiens with 20 samples.

Results

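The genes described here are 43 genes of mitosis and the spindle, chosen by symbol from a list of mitotic cyclins, kinases, kinesin motors, kinetochore proteins, spindle proteins and the transcription factor FOXM1. Of these, 42 had a probe set annotated to their symbol alone, out of 18416 genes named in this way on the array, and all 42 passed the floor on low values. CENPA was measured only by a probe set that carries a further symbol, so its expression is not used here. The 42 genes had 43 probe sets between them, since BIRC5 had 2, of which the brighter was used.

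Transcripts were measured in 5 cell lines of classical Hodgkin lymphoma (L428, KM-H2, L1236, SUP-HD1 and UHO-1), a tumour of B cell origin that has lost much of its B cell programme. All lines, vehicle-treated cells included, stably expressed FOXO1(3A)ER, a FOXO1 protein that is resistant to inactivation by AKT and is fused to the hormone-binding part of the oestrogen receptor, so that 4-hydroxytamoxifen (4-OHT) switches it on. In each line, cells given 4-OHT for 24 h were compared with cells given the ethanol vehicle for 24 h, with 2 arrays in each of the 10 groups and 20 arrays in all. Nothing in the labels ties the 2 arrays of a group to separate cultures. P-values therefore reflect array-to-array spread, which may in part be technical. No array of cells without the fusion protein was given 4-OHT, so an effect of 4-OHT alone and an effect of FOXO1 cannot be told apart. Whether a line was 1 clone or a pool is not stated in the labels. The protocol text of the labels gives 200 µM 4-OHT but names cells with a different fusion protein, so that dose is quoted only as labelled.

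Genes of this kind form a transcriptional programme that peaks in G2 and M phase. In resting cells the DREAM complex, with RBL2 and E2F4, holds many of them down, and in cycling cells the same MuvB core joins MYBL2 and then FOXM1 and helps to switch them on. Their products build the spindle, attach chromosomes to it, separate the chromatids and divide the cell. FOXO factors are known to raise CDKN1B, an inhibitor of cyclin-dependent kinases, and in this way to slow entry into the cycle.

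All values are log2 expression values that the authors computed by the robust multichip average (RMA). By their distributions the arrays fell into 2 lots, which are taken here to have been normalised separately. Medians lay at 5.67 to 5.71 on the 8 arrays that KM-H2 and L428 share as a lot and at 6.26 to 6.41 on the remaining 12 arrays, so levels are compared only within a lot. A response is the mean of 4-OHT arrays minus the mean of vehicle arrays of the same line, in log2 units. A gene is said to have risen or fallen where limma's adjusted p, over all 15850 genes tested, was below 0.05. CDKN1B, the inhibitor named above, rose in every line, with responses of 1.07 in L428, 0.60 in KM-H2, 0.83 in UHO-1, 0.56 in SUP-HD1 and 0.81 in the arrays labelled L1236 (SE 0.0712). The RNA came from whole cultures, so a smaller share of cells in mitosis and less transcript per cell cannot be told apart.

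The arrays labelled L1236 stood apart from the others in their marker genes. The T cell receptor chains CD3D, CD3E and CD3G averaged 11.19, 12.15 and 11.74 on the 4-OHT arrays labelled L1236 and 11.35, 12.22 and 11.91 on the vehicle arrays so labelled, while on single arrays of UHO-1 and SUP-HD1 none of the 3 genes exceeded 6.43. The mean of 6 T cell genes ran from 9.73 to 9.85 on the 4-OHT arrays labelled L1236 and from 9.97 to 10.0 on the vehicle arrays so labelled, against 5.63 to 6.59 on the arrays of UHO-1 and SUP-HD1, with CD4 alone near the level of SUP-HD1. On the arrays labelled L1236, CD4 averaged 5.84 with 4-OHT and 5.73 with vehicle, below UHO-1 with 10.38 and 10.18. Most Hodgkin cell genes went the other way: IRF4 averaged 6.37 with 4-OHT and 6.31 with vehicle on the arrays labelled L1236, but at least 12.10 in either arm of UHO-1 and SUP-HD1. With vehicle, 8 of 8 Hodgkin genes were called lower there than in UHO-1, as were 27.2% of all genes. Against SUP-HD1, where 27.4% of all genes were lower and 30.1% higher, 7 Hodgkin genes were lower and 1 higher. The 1 was TNFRSF8, at 7.57 with 4-OHT and 7.76 with vehicle on the arrays labelled L1236 and 7.17 and 7.14 in SUP-HD1. The mean of 8 Hodgkin genes ran from 7.06 to 7.23 on the arrays labelled L1236 and from 9.56 to 10.4 on those of UHO-1 and SUP-HD1. Among markers, CD79A and the myeloid gene LYZ differed between arms there, with CD79A at 11.70 with 4-OHT and 9.33 with vehicle and LYZ at 7.93 with 4-OHT and 4.27 with vehicle. Of the 6 T cell genes, 2 changed there, CD2 with 8.56 with 4-OHT and 9.76 with vehicle and CD8A with 9.27 with 4-OHT and 8.93 with vehicle. Of all genes, 8.25% rose and 14.9% fell there. Over these arrays the mean of 5 myeloid genes ran from 6.08 to 6.15 with 4-OHT and from 5.23 to 5.39 with vehicle, and that of 4 B cell genes was 7.35 with 4-OHT and 6.72 to 6.86 with vehicle. Each of these 2 lists had 1 call there, LYZ and CD79A. The median response was 0.117 for the 5 myeloid genes and 0.075 for the 3 B cell genes tested. CD79B was lower with 4-OHT without a call, at 7.13 against 7.37 with vehicle. The part of these differences in the results for that label was not tested. For the F test, the count of opposite calls and the average over the 5 lines, counts of mitosis and spindle genes are given with and without these arrays.

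Markers also changed with 4-OHT in other lines. In L428, 1 of the 8 Hodgkin genes rose and 4 fell, among them TNFRSF8 (CD30), at 8.55 with 4-OHT and 10.00 with vehicle, and FSCN1, at 10.68 with 4-OHT and 11.75 with vehicle. In KM-H2, 1 of the 8 rose and 3 fell. Of 6 stromal genes there, 1 rose, DCN, which averaged 6.76 with 4-OHT and 3.37 with vehicle. COL1A1 was the 1 that fell, at 6.82 with 4-OHT and 7.44 with vehicle. Of 5 myeloid genes there, 0 rose and 1 fell, ITGAM, which averaged 5.48 with 4-OHT and 7.08 with vehicle. Hodgkin genes numbered 1 higher and 2 lower in UHO-1 and 2 higher and 0 lower in SUP-HD1. Stromal genes numbered 1 higher and 0 lower in L428, 1 and 1 in UHO-1 and 0 and 0 in SUP-HD1. Myeloid genes numbered 1 higher and 0 lower in L428, 0 and 3 in UHO-1 and 0 and 1 in SUP-HD1. Of all genes, 12.0% rose and 17.5% fell in L428, and 10.0% rose and 12.3% fell in KM-H2. In UHO-1 13.4% rose and 11.1% fell, and in SUP-HD1 3.68% rose and 2.35% fell. These markers were chosen for naming after their values were seen, and their part in the results was not tested.

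**Figure D1:**
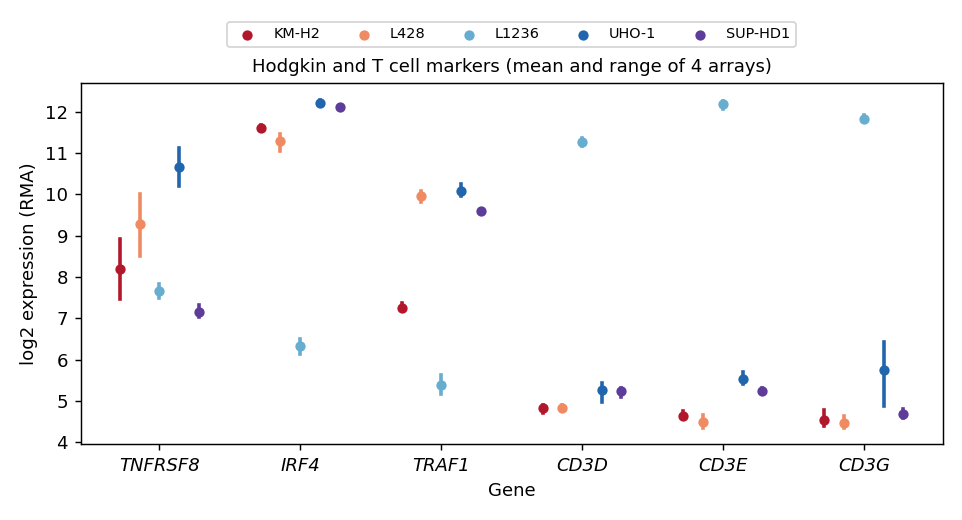
Levels of 3 Hodgkin cell genes (TNFRSF8, IRF4, TRAF1) and 3 T cell genes (CD3D, CD3E, CD3G) in each line, in log2 RMA units. Points are means and bars the range of the 4 arrays of a line, both arms together. Within their lot, the arrays labelled L1236 lie lowest for IRF4 and TRAF1 and highest for the 3 T cell genes. KM-H2 and L428 belong to the other lot, and their levels are not comparable with those of the remaining lines.

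The promoters of these genes share short sequence elements, and those of PLK1, CCNB1, CDC20 and CCNB2 are shown, picked by name, so that the elements can be read beside the values of these genes given further on. RefSeq promoter windows of GRCh38.p14, from 250 bases before to 50 after the annotated start, were at hand for 37 of the 43 genes. Searched on both strands were the CHR element (cell cycle genes homology region, TTTGAA), to which MuvB complexes bind, its variant spelling TTCGAA, the CCAAT box (CCAAT), to which NF-Y binds, and a forkhead element (GTAAACA). None of these motifs overlaps another in the windows printed here, where the CHR element and the CCAAT box, on either strand when spelled TTCAAA or ATTGG, stand in capitals. The motifs were chosen after expression values had been seen.
PLK1, chr16:23678639-23678938, + strand: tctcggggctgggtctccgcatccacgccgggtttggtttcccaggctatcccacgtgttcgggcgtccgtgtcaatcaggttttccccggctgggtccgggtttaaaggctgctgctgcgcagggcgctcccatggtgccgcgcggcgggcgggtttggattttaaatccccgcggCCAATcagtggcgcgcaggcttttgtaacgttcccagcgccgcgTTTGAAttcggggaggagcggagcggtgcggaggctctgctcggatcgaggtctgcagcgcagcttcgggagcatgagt
CCNB1, chr5:69166900-69167199, + strand: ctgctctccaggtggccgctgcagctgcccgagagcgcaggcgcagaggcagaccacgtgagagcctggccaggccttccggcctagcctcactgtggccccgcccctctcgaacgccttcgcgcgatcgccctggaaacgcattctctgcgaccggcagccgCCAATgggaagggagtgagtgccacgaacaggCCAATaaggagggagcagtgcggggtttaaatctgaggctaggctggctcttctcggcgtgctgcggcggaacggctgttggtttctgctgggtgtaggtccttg
CDC20, chr1:43358731-43359030, + strand: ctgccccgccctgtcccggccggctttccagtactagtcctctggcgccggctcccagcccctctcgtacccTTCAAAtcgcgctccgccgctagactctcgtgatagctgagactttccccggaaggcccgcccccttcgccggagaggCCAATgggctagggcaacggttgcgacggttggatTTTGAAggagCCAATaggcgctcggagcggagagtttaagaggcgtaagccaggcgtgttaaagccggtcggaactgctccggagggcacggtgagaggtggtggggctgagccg
CCNB2, chr15:59104896-59105195, + strand: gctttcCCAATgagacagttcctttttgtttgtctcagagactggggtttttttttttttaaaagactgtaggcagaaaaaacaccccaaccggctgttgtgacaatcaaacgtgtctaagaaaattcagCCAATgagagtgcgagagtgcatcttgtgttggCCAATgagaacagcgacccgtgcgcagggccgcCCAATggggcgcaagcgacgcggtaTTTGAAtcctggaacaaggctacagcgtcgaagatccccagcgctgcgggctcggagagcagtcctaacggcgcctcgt
PLK1 and CCNB2 each hold TTTGAA beginning 29 bases before the start, with a CCAAT box 73 bases before it in PLK1 and the nearest of 4 CCAAT boxes 54 bases before it in CCNB2. CDC20 holds the CHR letters at 65 bases and, on the other strand, at 178 bases before the start. The window of CCNB1 holds 2 CCAAT boxes and neither CHR spelling.

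TTTGAA occurred in 27 of the 37 mitosis and spindle promoters (73.0%) and in 15.4% of the 27305 promoters of the whole table. The variant TTCGAA occurred in 3 of the 37 (8.11%), against 1.45% of all promoters. CCAAT was found in 28 of the 37 (75.7%) and in 35.7% of all promoters. Either CHR spelling together with a CCAAT box stood in 22 of the 37 (59.5%), against 6.58% of all. The forkhead element was present in 1 of the 37, that of CDK1 (2.70%), and in 3.41% of all promoters. These are matches of letters in a window, with no measurement of binding.

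**Figure D2:**
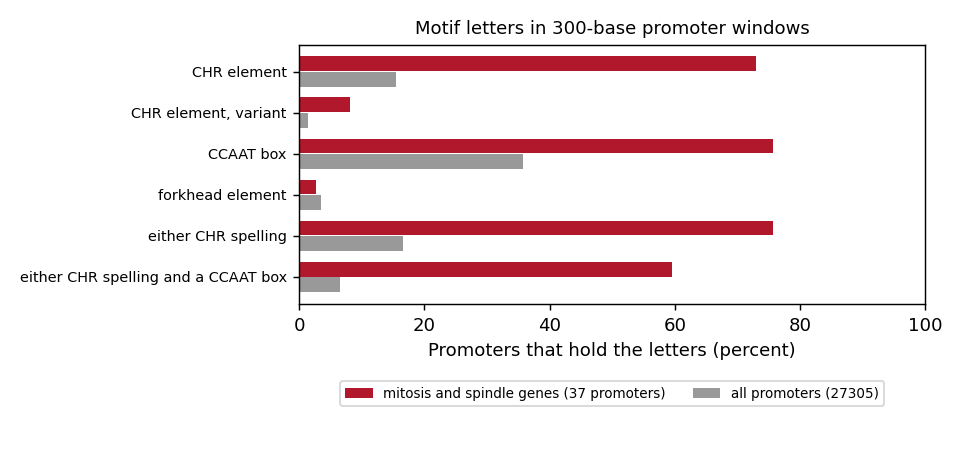
Percent of 300-base promoter windows that hold each motif, for the 37 windows of mitosis and spindle genes (upper bar of each pair) and for all 27305 windows of the RefSeq table (lower bar). CHR and CCAAT letters are more frequent among the 37, at 73.0% and 75.7%, and the forkhead letters are at 2.70% against 3.41%.

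The response of these genes to 4-OHT took opposite directions in different lines. In L428, 36 of the 42 genes fell and 0 rose, with a median response of -0.50. In the arrays labelled L1236, 29 rose and 0 fell, with a median of 0.29 and a positive response in all 42. KM-H2 and UHO-1 were mixed, with 7 higher and 3 lower in KM-H2 (median 0.07) and 4 higher and 7 lower in UHO-1 (median -0.03). In SUP-HD1, 1 rose and 7 fell, with a median of -0.16 and a positive response in 2 of 42.

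Over all genes tested, 12.0% rose and 17.5% fell in L428, and 8.25% rose and 14.9% fell in the arrays labelled L1236. The shares of all genes were 10.0% higher and 12.3% lower in KM-H2, 13.4% higher and 11.1% lower in UHO-1, and 3.68% higher and 2.35% lower in SUP-HD1. All-gene medians lay between -0.035 and -0.003. The count of falls in L428 and of rises in the arrays labelled L1236 were therefore far from the all-gene shares, while the counts in KM-H2 and UHO-1 were near them, and the 7 falls of SUP-HD1 were a larger share than that of all genes. At an unadjusted p below 0.05 the count of rises in L428 and of falls in the arrays labelled L1236 was still 0.

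**Figure D3:**
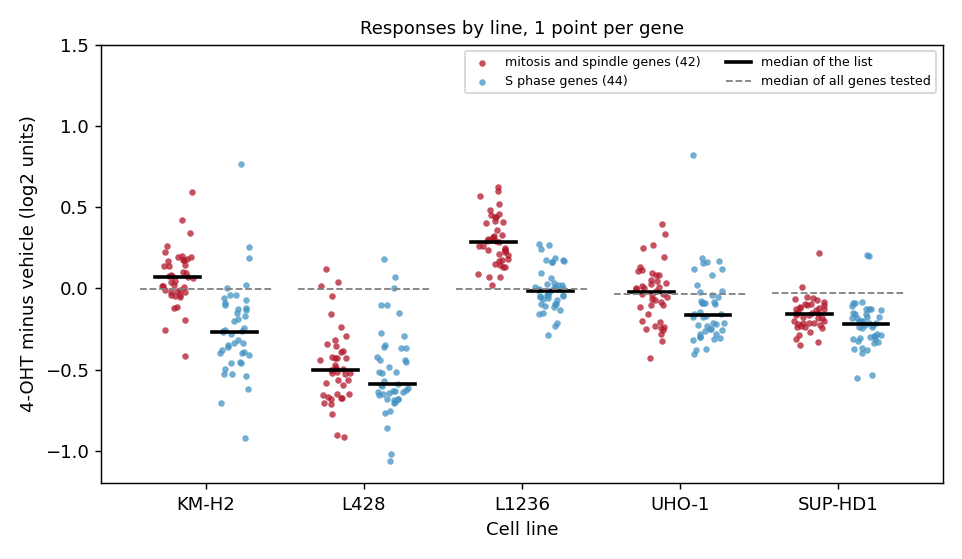
Response of each gene (4-OHT minus vehicle, log2 units) in the 5 lines, 1 point per gene, for 42 mitosis and spindle genes (left of each pair) and 44 S phase genes (right). Thick bars are list medians and dashed lines the median of all genes tested. Mitosis and spindle medians are 0.29 in L1236 and -0.50 in L428, whereas the S phase median in L1236 is -0.01.

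The test of whether a response differed between the 5 lines (limma F test) was passed by 39 of the 42 genes, and by 42.7% of all genes. The exceptions were CDK1 (adjusted p = 0.165), NUSAP1 (0.0666) and NCAPG (0.0546). Without the arrays labelled L1236, 39 still passed, but the share of all genes was not taken for that test. There were 28 genes that rose in at least 1 line and fell in at least 1 other, a pattern met by 8.12% of all genes. Of these, 26 rose in the arrays labelled L1236 and fell in L428, as 1.36% of all genes did. Counting only the other 4 lines left 7 genes with opposite calls, AURKA, CDC20, DLGAP5, KIF11, KIF14, PLK1 and PRC1, and 3.98% of all genes. This last count was chosen after the marker genes had been seen.

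Within a lot, the responses of 2 lines could be set against each other directly. The response of KM-H2 was above that of L428 for 34 of 42 genes and below it for 0, with a median difference of 0.55 (12.7% and 10.2% of all genes). The widest gap was that of KIF11, at 1.10 (SE 0.105, adjusted p = 4.25e-08). The response of the arrays labelled L1236 exceeded that of UHO-1 for 26 genes and was below it for 0, with a median difference of 0.38 (9.41% and 16.3% of all genes). It exceeded the response of SUP-HD1 for 31 genes and was below it for 0, with a median difference of 0.43 (5.21% and 8.85% of all genes), and both comparisons share the arrays labelled L1236. ANLN had the widest of these gaps, 0.91 (SE 0.121) between the arrays labelled L1236 and SUP-HD1. In these 3 comparisons the count in the lower direction was also 0 at an unadjusted p below 0.05.

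UHO-1 and SUP-HD1 differed for only 3 genes, against 2.79% of all genes higher and 1.26% lower. HMMR and CCNB2 had the higher response in UHO-1, by 0.57 (SE 0.13) and 0.32 (SE 0.0889). PLK1 had the lower one, by -0.45 (SE 0.0916, adjusted p = 0.00432). The count of genes with a higher response in UHO-1 was 8 without SUP-HD1 vehicle replicate 2, 0 without SUP-HD1 vehicle replicate 1 or UHO-1 vehicle replicate 2, and 1 without any other single array of either line, without any single vehicle array of KM-H2 or L428, or with every array centred on its median.

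Across genes, the order of responses was shared between some lines and not between others. Over the 42 genes, Pearson's r between the responses of L428 and UHO-1 was 0.67, against 0.39 over all genes tested. Between L428 and SUP-HD1 it was 0.33, against 0.42 over all genes, and between L428 and the arrays labelled L1236 it was 0.08, against 0.24. These are descriptions across genes of the same arrays, which are not independent replicates, and no arrays are shared by 2 lines.

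**Figure D4:**
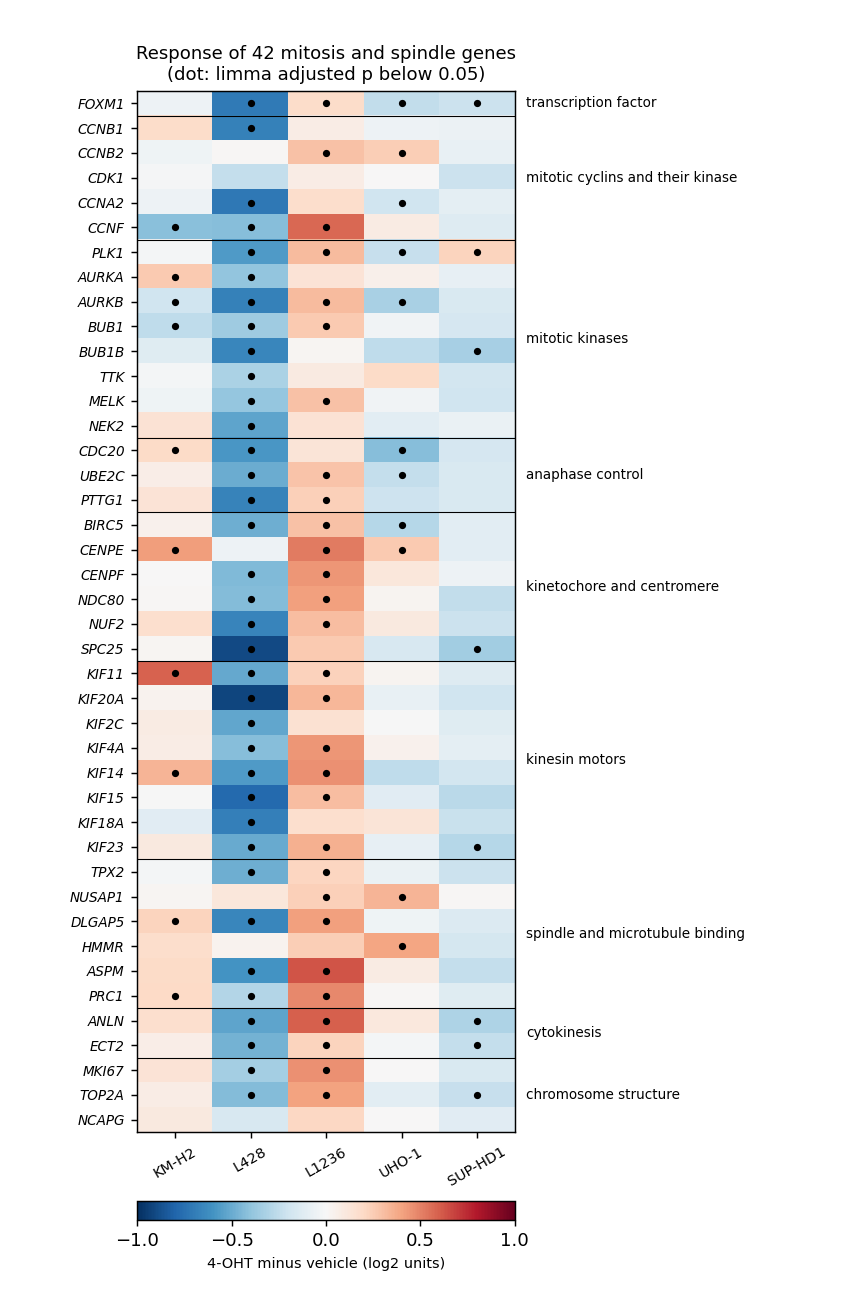
Response of each of the 42 genes (rows, by role) in the 5 lines (columns), as 4-OHT minus vehicle in log2 units. Red is higher and blue lower with 4-OHT, and a dot marks limma's adjusted p below 0.05. The L428 column holds 36 dots, all on falls, and the L1236 column 29, all on rises.

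FOXM1, the forkhead transcription factor that drives many of these genes in G2, fell in 3 lines and rose in 1. It read 8.32 and 8.25 with 4-OHT and 9.00 and 8.98 with vehicle in L428, a response of -0.71 (SE 0.0597, adjusted p = 4.16e-09). It read 9.68 and 9.69 with 4-OHT and 9.93 and 9.92 with vehicle in UHO-1 (-0.24) and 10.48 and 10.47 with 4-OHT and 10.68 and 10.69 with vehicle in SUP-HD1 (-0.21, adjusted p = 0.034). Both 4-OHT arrays were below both vehicle arrays in each of these 3 lines. On the arrays labelled L1236 it read 10.78 and 10.66 with 4-OHT and 10.48 and 10.59 with vehicle (0.18, adjusted p = 0.0295). In KM-H2 it read 8.26 and 8.29 with 4-OHT and 8.29 and 8.36 with vehicle, and the arms overlapped. The average of the 5 responses was -0.21 (SE 0.0267) and, without the arrays labelled L1236, -0.30. The call in SUP-HD1 was lost without any 1 of its own arrays (adjusted p 0.121 to 0.201), and that in the arrays labelled L1236 without 4-OHT replicate 1 (0.251) or vehicle replicate 1 (0.22). Centring every array on its median ended both (0.0705 in SUP-HD1 and 0.0588 labelled L1236).

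The mitotic cyclins and their kinase did not move as a block. CCNB1, the cyclin that activates CDK1 at entry into mitosis, fell in L428, at 10.19 and 10.22 with 4-OHT and 10.97 and 10.78 with vehicle, a response of -0.67 (SE 0.0787, adjusted p = 5.25e-07) or 0.627 times the vehicle level. It read 10.56 and 10.38 with 4-OHT and 10.31 and 10.27 with vehicle in KM-H2, where the response of 0.18 missed the threshold (adjusted p = 0.113). In the other lot CCNB1 read 10.16 and 10.07 with 4-OHT and 10.00 and 10.09 with vehicle on the arrays labelled L1236, 9.64 and 9.51 with 4-OHT and 9.72 and 9.55 with vehicle in SUP-HD1 and 9.04 and 8.97 with 4-OHT and 9.14 and 8.97 with vehicle in UHO-1. The arms overlapped in all 3.

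Its partner kinase CDK1 passed the threshold in no line in the main fit. CDK1 read 9.04 and 8.87 with 4-OHT and 9.20 and 9.18 with vehicle in L428, a response of -0.24 (SE 0.0934, adjusted p = 0.0583). In some other settings limma called that fall. These included median centring (adjusted p = 0.0454), KM-H2 and L428 fitted alone (0.0172) and the L428 arrays alone (0.0265). It read 8.52 and 8.45 with 4-OHT and 8.50 and 8.49 with vehicle in KM-H2 and 9.92 and 9.85 with 4-OHT and 9.75 and 9.88 with vehicle on the arrays labelled L1236. UHO-1 gave 8.81 and 8.96 with 4-OHT and 8.90 and 8.87 with vehicle, and SUP-HD1 gave 9.01 and 9.05 with 4-OHT and 9.44 and 9.05 with vehicle. Only in L428 were both 4-OHT arrays below both vehicle arrays, and in SUP-HD1 the 2 vehicle arrays themselves differed by more than any response of this gene. NCAPG, a condensin subunit, was the only other gene called in no line, where 40.7% of all genes were called in none.

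CCNB2, another B-type cyclin, was 1 of the 6 genes without a call in L428, the others being CDK1, CENPE, NUSAP1, HMMR and NCAPG. It rose by 0.29 on the arrays labelled L1236 and by 0.25 in UHO-1 (SE 0.0629), and in L428 its response was 0.01 (adjusted p = 0.912). CCNA2, which acts in S phase and G2, fell by 0.71 in L428 (SE 0.0702) and by 0.20 in UHO-1. CCNF, the substrate receptor of a ubiquitin ligase, was the largest fall in KM-H2, at 8.62 and 8.65 with 4-OHT and 9.04 and 9.06 with vehicle (-0.42, SE 0.0883, adjusted p = 0.000982). It read 9.94 and 9.94 with 4-OHT and 9.31 and 9.43 with vehicle on the arrays labelled L1236, a rise of 0.57 (adjusted p = 3.39e-05), and it fell by 0.43 in L428.

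Apart from CDK1, described above with the cyclins, the mitotic kinases numbered 8, and these fell in L428 by 0.32 to 0.68. PLK1, the polo kinase that acts from centrosome maturation to cytokinesis, read 10.20 and 10.06 with 4-OHT and 10.76 and 10.64 with vehicle there (-0.57, SE 0.0648, adjusted p = 3.86e-07). It read 9.63 and 9.61 with 4-OHT and 9.88 and 9.82 with vehicle in UHO-1, a fall of 0.23 that was lost without any of 3 of its arrays (adjusted p 0.0516 to 0.0898), and 9.05 and 9.16 with 4-OHT and 9.13 and 9.12 with vehicle in KM-H2, where the arms overlapped. PLK1 was higher with 4-OHT in the remaining lines, at 11.74 and 11.54 with 4-OHT and 11.34 and 11.30 with vehicle on the arrays labelled L1236 (0.32, adjusted p = 0.000739) and 11.61 and 11.61 with 4-OHT and 11.38 and 11.40 with vehicle in SUP-HD1 (0.22, adjusted p = 0.0462). It was the only one of the 42 genes to rise in SUP-HD1. That call was lost without any single array of SUP-HD1 (adjusted p 0.124 to 0.227), without any single array of UHO-1 or vehicle array of KM-H2 (0.0521 to 0.0571) and with every array centred on its median (0.081), quantile normalisation (0.0681), no floor (0.0528) or no intensity trend (0.159), although both 4-OHT arrays stood above both vehicle arrays.

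AURKB, the kinase of the chromosomal passenger complex, fell in L428 by 0.68 (SE 0.0682) and in UHO-1, where it read 10.10 and 10.10 with 4-OHT and 10.49 and 10.35 with vehicle (-0.32, adjusted p = 0.00167). It rose by 0.32 on the arrays labelled L1236. BIRC5, its partner in that complex, had responses of the same sign in these lines, -0.49 in L428, -0.28 in UHO-1 and 0.29 on the arrays labelled L1236 (SE 0.0682), all past the threshold. In KM-H2 the related AURKA, which acts at centrosomes, rose by 0.26 (SE 0.0906, adjusted p = 0.0393) while AURKB fell by 0.20 (adjusted p = 0.0391). The AURKB call in KM-H2 was lost without any of 3 of its own arrays (adjusted p 0.117 to 0.386), and under 3 other scalings (0.0599 to 0.0789).

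The checkpoint kinases BUB1 and BUB1B, which delay anaphase until every kinetochore is attached, both fell in L428 and were called in different lines elsewhere. BUB1 was the other large fall of KM-H2, at 9.85 and 9.85 with 4-OHT and 10.08 and 10.13 with vehicle (-0.26, SE 0.0587, adjusted p = 0.00212), and it rose by 0.26 on the arrays labelled L1236. BUB1B read 9.28 and 9.29 with 4-OHT and 9.65 and 9.57 with vehicle in SUP-HD1, a response of -0.33 (SE 0.0979, adjusted p = 0.048), and 10.16 and 10.16 with 4-OHT and 10.12 and 10.17 with vehicle on the arrays labelled L1236, where the arms overlapped. Its call in SUP-HD1 was lost without any single array of that line (adjusted p 0.095 to 0.234).

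Of the 3 genes of anaphase control, all fell in L428. CDC20, the activator of the anaphase-promoting complex, read 9.89 and 9.86 with 4-OHT and 10.53 and 10.38 with vehicle in L428 (-0.58, SE 0.0627, adjusted p = 1.61e-07) and 10.01 and 10.05 with 4-OHT and 10.47 and 10.44 with vehicle in UHO-1 (-0.43, adjusted p = 3.06e-05), the largest fall of UHO-1. In KM-H2 it read 10.35 and 10.28 with 4-OHT and 10.15 and 10.09 with vehicle and rose (0.19, adjusted p = 0.0274). The arms did not overlap in any of these 3 lines. It read 11.32 and 11.14 with 4-OHT and 11.14 and 11.06 with vehicle on the arrays labelled L1236 (adjusted p = 0.157) and 11.03 and 10.96 with 4-OHT and 11.21 and 11.11 with vehicle in SUP-HD1 (0.144). The KM-H2 call was lost without 4-OHT replicate 1 (0.199), vehicle replicate 1 (0.0534) or vehicle replicate 2 (0.191), and with quantile normalisation (0.0726) or no intensity trend (0.0966). UBE2C, the ubiquitin-conjugating enzyme of that complex, fell by 0.50 in L428 and 0.24 in UHO-1 (SE 0.0801), and the securin PTTG1 fell by 0.67 in L428 (SE 0.0796).

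Kinetochore genes fell in L428 with the exception of CENPE, the kinesin that carries chromosomes to the metaphase plate. CENPE read 7.19 and 7.23 with 4-OHT and 7.26 and 7.26 with vehicle in L428 (-0.05, adjusted p = 0.781) and 8.43 and 8.29 with 4-OHT and 7.90 and 7.98 with vehicle in KM-H2, a rise of 0.42 (SE 0.097, adjusted p = 0.00239). It also rose by 0.52 on the arrays labelled L1236 and by 0.27 in UHO-1, the last at an adjusted p of 0.0496 that most other settings moved above the threshold (up to 0.388, without UHO-1 vehicle replicate 2). SPC25, a subunit of the NDC80 complex that holds microtubule ends, had 1 of the 2 largest falls of L428, at 7.69 and 7.61 with 4-OHT and 8.63 and 8.47 with vehicle (-0.91, SE 0.0988, adjusted p = 1.91e-07). In SUP-HD1 it read 8.24 and 8.38 with 4-OHT and 8.80 and 8.52 with vehicle (-0.35, adjusted p = 0.0385), the largest fall there, with the arms apart. Leaving out SUP-HD1 vehicle replicate 1, 4-OHT replicate 1 or 4-OHT replicate 2 ended that call (adjusted p 0.367, 0.338 and 0.0803), as did centring every array on its median (0.0648). NDC80 and NUF2, subunits of the same complex, fell by 0.43 and 0.66 in L428 and rose by 0.41 and 0.31 on the arrays labelled L1236 (SE 0.0935 and 0.0857).

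The 8 KIF-named kinesin motors all fell in L428, with a median response of -0.54, and 6 of them rose on the arrays labelled L1236, whereas the kinesin CENPE, described with the kinetochore genes, had no call in L428. KIF20A, a motor of the central spindle and cytokinesis, had the largest fall of all, at 8.04 and 7.91 with 4-OHT and 8.95 and 8.84 with vehicle in L428 (-0.91, SE 0.0816, adjusted p = 9.37e-09), or 0.53 times the vehicle level. It read 10.60 and 10.44 with 4-OHT and 10.17 and 10.21 with vehicle on the arrays labelled L1236 (0.33, adjusted p = 0.00432), a call that was lost without 4-OHT replicate 1 of that label (0.0791). The remaining lines gave no call, with 8.99 and 8.92 with 4-OHT and 8.88 and 8.95 with vehicle in KM-H2, 9.15 and 9.01 with 4-OHT and 9.21 and 9.10 with vehicle in UHO-1 and 9.90 and 9.80 with 4-OHT and 10.16 and 9.93 with vehicle in SUP-HD1.

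KIF11, the motor that pushes spindle poles apart, had the largest rise of KM-H2, at 10.37 and 10.23 with 4-OHT and 9.69 and 9.73 with vehicle (0.59, SE 0.0744, adjusted p = 1.67e-06), or 1.507 times the vehicle level. In L428 it read 9.29 and 9.16 with 4-OHT and 9.77 and 9.71 with vehicle (-0.51, adjusted p = 1.03e-05). The vehicle levels of the 2 lines were alike, between 9.69 and 9.77, and the 4-OHT levels lay on opposite sides of them. KIF11 read 10.69 and 10.60 with 4-OHT and 10.32 and 10.50 with vehicle on the arrays labelled L1236 (adjusted p = 0.0248), 9.99 and 10.02 with 4-OHT and 9.98 and 9.98 with vehicle in UHO-1 and 10.10 and 10.04 with 4-OHT and 10.31 and 10.09 with vehicle in SUP-HD1, with no call in the last 2. KIF14, a motor of the midbody, had the same pair of signs, 0.34 in KM-H2 and -0.56 in L428 (SE 0.104).

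Among the 6 genes of the spindle and microtubule binding, ASPM, DLGAP5, PRC1 and TPX2 fell in L428 and NUSAP1 and HMMR did not. ASPM, a spindle pole protein, had the largest rise on the arrays labelled L1236, at 10.48 and 10.48 with 4-OHT and 9.77 and 9.94 with vehicle (0.63, SE 0.0868, adjusted p = 8.39e-06), and read 8.15 and 7.87 with 4-OHT and 8.67 and 8.54 with vehicle in L428 (-0.60). HMMR, a microtubule-binding protein that is also a hyaluronan receptor, had the largest rise of UHO-1, at 8.88 and 8.88 with 4-OHT and 8.54 and 8.43 with vehicle (0.40, SE 0.0921, adjusted p = 0.0037). NUSAP1, which bundles spindle microtubules, followed at 10.54 and 10.67 with 4-OHT and 10.21 and 10.32 with vehicle (0.34, SE 0.0786, adjusted p = 0.00384). The arms did not overlap for either gene, but the HMMR call was lost without UHO-1 vehicle replicate 2 (0.0543) and that of NUSAP1 without UHO-1 vehicle replicate 1 (0.0526) or 4-OHT replicate 2 (0.067).

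Cytokinesis was represented by ANLN and ECT2, which both rose on the arrays labelled L1236 and fell in L428 and SUP-HD1. ANLN, the scaffold of the contractile ring, read 10.74 and 10.64 with 4-OHT and 10.01 and 10.18 with vehicle on the arrays labelled L1236 (0.60, SE 0.0856, adjusted p = 1.26e-05) and fell by 0.52 in L428 and 0.31 in SUP-HD1. Genes that fell in both L428 and SUP-HD1 were 7 in all, ANLN, BUB1B, ECT2, FOXM1, KIF23, SPC25 and TOP2A, where 1.61% of all genes did so. MKI67, the proliferation marker Ki-67 that coats mitotic chromosomes, read 9.66 and 9.56 with 4-OHT and 9.92 and 9.98 with vehicle in L428 (-0.34, SE 0.0668, adjusted p = 0.000342) and 11.36 and 11.41 with 4-OHT and 10.85 and 11.01 with vehicle on the arrays labelled L1236 (0.45, adjusted p = 1.83e-05). It had no call elsewhere, with 9.04 and 9.06 with 4-OHT and 8.84 and 9.00 with vehicle in KM-H2, 10.77 and 10.90 with 4-OHT and 10.80 and 10.87 with vehicle in UHO-1 and 10.48 and 10.43 with 4-OHT and 10.64 and 10.57 with vehicle in SUP-HD1. TOP2A, the topoisomerase that untangles chromatids, fell by 0.43 in L428 and 0.23 in SUP-HD1 and rose by 0.40 on the arrays labelled L1236 (SE 0.0658).

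**Figure D5:**
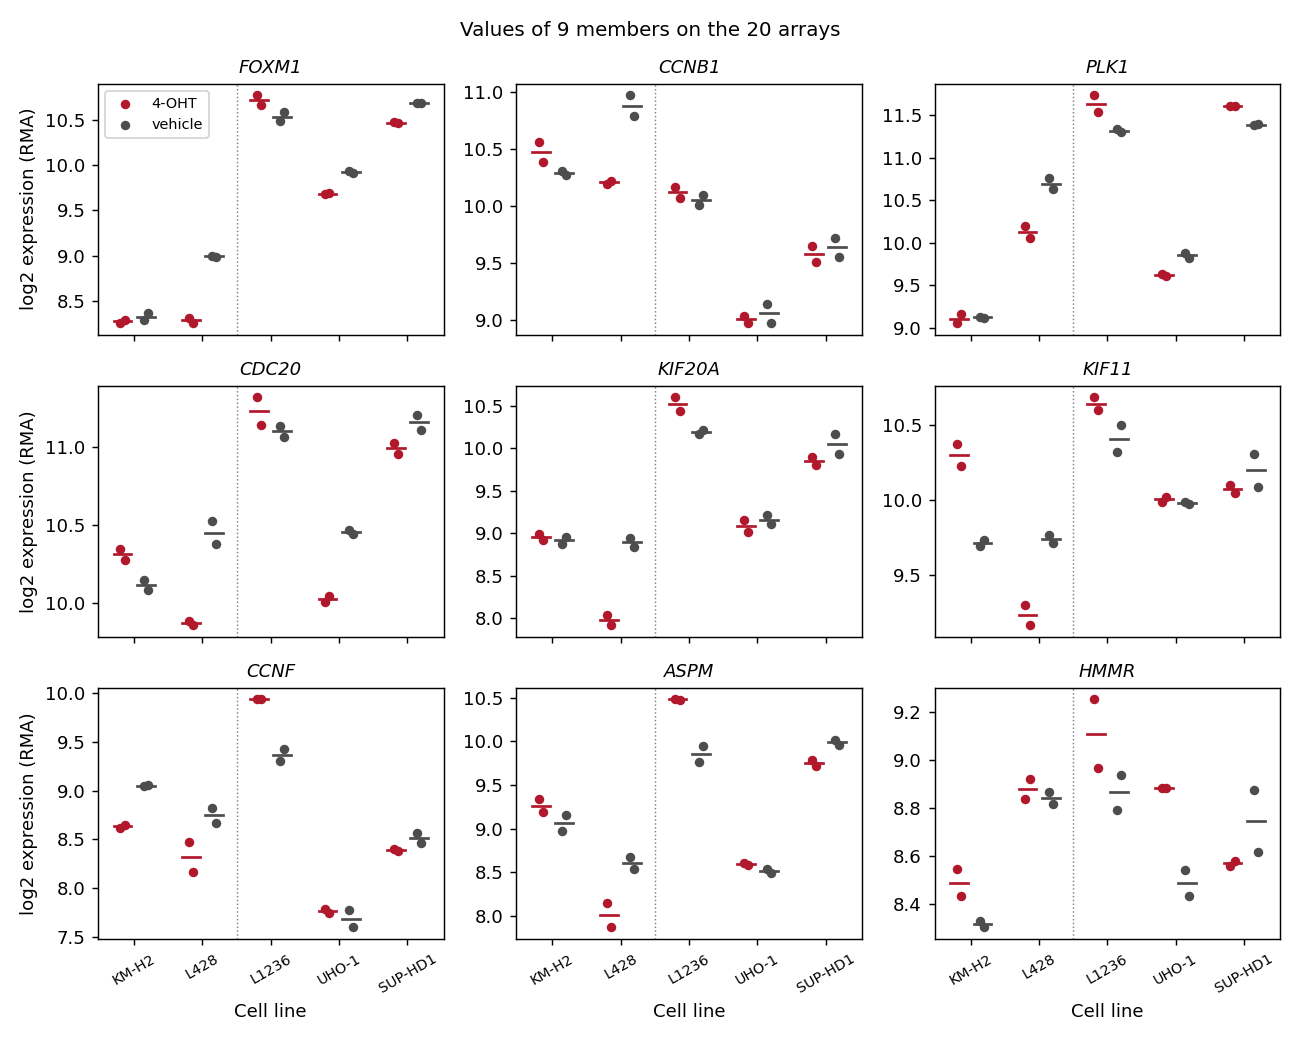
Log2 expression (RMA) of 9 of the genes on the 20 arrays. Within each line the 4-OHT arrays (red) are left of the vehicle arrays (grey), points are single arrays and lines group means of 2, and the dotted line separates the 2 lots, between which levels are not comparable. KIF11 lies above vehicle in KM-H2 and below it in L428, and PLK1 lies above vehicle in L1236 and SUP-HD1 and below it in L428 and UHO-1.

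Counts in the lines other than L428 depended on single arrays. In the arrays labelled L1236 the rises numbered 18 without 4-OHT replicate 1 and 19 without vehicle replicate 1. KM-H2 kept 2 rises without vehicle replicate 1 or 4-OHT replicate 1 and 3 without vehicle replicate 2. In UHO-1 there were 1 rise without vehicle replicate 2, 2 rises without either 4-OHT array, and 3 falls without 4-OHT replicate 1. The falls of SUP-HD1 numbered 0 without vehicle replicate 1 or either 4-OHT array, and its 1 rise was lost without any single array of that line. In L428 the falls stayed between 34 and 38 whichever array was left out. The scale also mattered in SUP-HD1, with 1 fall when every array was centred on its median and 0 when the spread was not modelled on intensity. Settings of this kind, or 1 array, also ended the calls of ANLN in SUP-HD1 (adjusted p 0.0546 to 0.242) and of KIF11 (0.0514 to 0.27) and NUSAP1 (0.0536 to 0.269) in the arrays labelled L1236.

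An average over the 5 lines combines responses of opposite sign. The average response was higher for 4 genes, CENPE, NUSAP1, HMMR and CCNB2, and lower for 16, with a median of -0.07, when 17.4% of all genes were higher and 21.2% lower. Without L428, 11 were higher and 2 lower, and without the arrays labelled L1236, 3 were higher and 31 lower. Leaving out UHO-1 left 1 higher. Shares of all genes were not taken for these averages without a line. Averaged over KM-H2 and L428 alone, 1 gene was higher and 30 lower (13.9% and 19.5% of all genes). Averaged over the other 3 lines, the arrays labelled L1236 included, 9 were higher and 2 lower (13.1% and 13.5% of all genes).

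Levels without 4-OHT also differed between lines of a lot. With vehicle, KM-H2 was above L428 for 9 of the 42 genes and below it for 22, with a median difference of -0.22 (27.3% and 26.9% of all genes). PLK1 had the widest gap, -1.57 (SE 0.0648), and CENPF, a kinetochore protein, the widest in the other direction, 0.87 (SE 0.069). Vehicle arrays labelled L1236 were above those of UHO-1 for 35 genes and below for 1, KIF23, with a median difference of 0.61 (29.5% and 27.2% of all genes). They were above those of SUP-HD1 for 20 and below for 12, with a median difference of 0.13 (30.1% and 27.4%). UHO-1 was above SUP-HD1 for 5 and below for 31, with a median difference of -0.65 (27.1% and 26.7%). The count above was 3 without SUP-HD1 vehicle replicate 2. These 3 comparisons share vehicle arrays.

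S phase genes, 44 of which were tested, fell in L428 as well but had calls in both directions on the arrays labelled L1236. There 4 rose and 3 fell, with a median of -0.01, against 29 and 0 for mitosis and spindle genes. Shares of all genes there were 8.25% higher and 14.9% lower, so the 4 rises were near the all-gene share. In KM-H2, 1 S phase gene was higher and 26 were lower (median -0.27), against 7 and 3 of the mitosis and spindle genes. L428 had 0 higher and 38 lower (median -0.59), UHO-1 had 1 and 19 (median -0.16) and SUP-HD1 had 0 and 20 (median -0.22). Of all genes, 10.0% were higher and 12.3% lower in KM-H2, and 12.0% and 17.5% in L428. The shares were 13.4% and 11.1% in UHO-1 and 3.68% and 2.35% in SUP-HD1. MCM3, a subunit of the replicative helicase, read 9.37 and 9.41 with 4-OHT and 10.35 and 10.27 with vehicle in KM-H2 (-0.92, SE 0.0632, adjusted p = 8.5e-11) and 11.13 and 11.09 with 4-OHT and 11.15 and 11.08 with vehicle on the arrays labelled L1236, where the arms overlapped. The difference between the lists was not tested. MCM2 and MCM4 of the same helicase had average responses of -0.39 (SE 0.0278) and -0.34 (SE 0.0238), and of -0.45 and -0.42 without the arrays labelled L1236.

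A further 77 genes of mitosis were tested outside the main list. They were 2 higher and 60 lower in L428, and 33 higher and 2 lower on the arrays labelled L1236. KM-H2 had 3 higher and 10 lower, UHO-1 4 and 15, and SUP-HD1 0 and 8. By average response the smallest p-values were those of CKS1B, a subunit of cyclin-dependent kinases (-0.27, SE 0.0234), CENPO (0.32, SE 0.0289) and CENPP (-0.36, SE 0.0411), the last 2 subunits of 1 centromere complex with opposite signs. The 15 subunits of the anaphase-promoting complex, the partner of CDC20, had 1 member higher and 5 lower on the arrays labelled L1236. In L428 0 were higher and 7 lower, in KM-H2 and in UHO-1 0 were higher and 2 lower, and in SUP-HD1 none was called by limma. The shares of all genes were those given above, 8.25% higher and 14.9% lower for the label L1236 and 12.0% higher and 17.5% lower in L428. They were 10.0% and 12.3% in KM-H2, 13.4% and 11.1% in UHO-1 and 3.68% and 2.35% in SUP-HD1. Among these subunits ANAPC5, ANAPC16 and ANAPC1 had the smallest p-values of the average (-0.23, -0.21 and -0.20, SE 0.025, 0.0344 and 0.0391). Without the arrays labelled L1236 these averages were -0.21, -0.24 and -0.18, and those of CKS1B, CENPO and CENPP were -0.33, 0.34 and -0.42.

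Of 27 regulators of the programme, the MuvB subunits, E2F factors, pocket proteins, NF-Y subunits and inhibitors of cyclin-dependent kinases, 3 were higher and 11 lower by average, the arrays labelled L1236 included. Of all genes, 17.4% were higher and 21.2% lower by average. By line, 6 regulators rose and 10 fell in L428, and 8 rose and 4 fell on the arrays labelled L1236. KM-H2 had 3 rises and 6 falls, UHO-1 5 and 2, and SUP-HD1 1 and 3. The shares of all genes in each line are those given above for the other lists. CDKN1B read 9.65 and 9.63 with 4-OHT and 8.51 and 8.64 with vehicle in L428 and 10.34 and 10.24 with 4-OHT and 9.38 and 9.57 with vehicle on the arrays labelled L1236, so it was higher with 4-OHT in both. Any part of CDKN1B in the responses of the mitosis genes was not tested. E2F7, a repressor of E2F target genes, read 9.71 and 9.72 with 4-OHT and 8.80 and 8.81 with vehicle in KM-H2 (0.91, SE 0.0707, adjusted p = 7.83e-10), and its responses elsewhere were 0.23 in L428, 0.28 in UHO-1, -0.20 in SUP-HD1 and 0.26 on the arrays labelled L1236. TFDP1, the partner of E2F factors in DNA binding, fell by 0.61 in L428 (SE 0.0521) and had a response of -0.11 on the arrays labelled L1236 (adjusted p = 0.147).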

How the data were processed

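RNA of 20 samples was measured on Human Gene 1.0 ST arrays of Affymetrix, per the labels' protocols, and the authors computed the deposited log2 values by RMA in Expression Console, per the design text. RMA corrects background, normalises between arrays and summarises probes, and its version is not stated in the labels. Sorted values differed by at most 0.253 between arrays of KM-H2 and L428, by at most 0.204 among the other 12, and by at least 0.712 between these lots. Precision is limited by the number of arrays. Between the 2 arrays of a group, the SD of the difference over all genes lay between 0.133 and 0.204.

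Of 33268 probe sets, the platform annotation gave 19457 a single gene symbol and 1751 more than one, and 12060 are unnamed here. Entrez identifiers of 19426 were found in the RefSeq table of GRCh38.p14, which changed 0 symbols. Where a gene had several probe sets (767 genes), its brightest by mean was used. Genes with a log2 value of at least 5 on at least 2 arrays were tested (15850 of 18416).

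Groups were taken from the array titles. A model of 10 group means was fitted with limma 3.58.1 in R 4.3.3 (lmFit, eBayes with trend), with 10 residual and 11.8 prior degrees of freedom, so that a gene has 1 SE for all lines. P-values were adjusted by Benjamini-Hochberg over 15850 genes. The fit was tested on simulated data, with 66 or 68 genes of a line changed at each size, fewer than were called in the data. It recovered 11.8% to 17.6% of changes of 0.25 log2 units, by line, and 54.5% to 72.7% of changes of 0.5. Where fewer genes change the adjustment of p is stricter, so recovery in the data may be higher than these shares. A missing call is still not a sign that a gene did not respond. Values on the arrays were given for CCNB1, CDK1, PLK1, FOXM1 and MKI67, for the 5 members with the smallest F test p, and for the 2 largest called rises and falls of each line, and in other lists 3 genes were named by the smallest p of the average, and CDKN1B. Other genes of the main list are given by role. Members, lists and promoters were chosen with earlier results of these data known. Alternatives were other scalings, floors, eBayes without trend, the mean of probe sets, a replicate block, smaller fits and leaving out lines or arrays. Replicate numbers did not pair the arrays.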

Additional observations from a re-analysis of the deposited data

Results flagged for a closer look

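Responses to 4-OHT that differed between lines are listed here, as tested by contrasts of the responses themselves. By limma's F test over the 5 lines, 39 of the 42 mitosis and spindle genes differed. Between KM-H2 and L428 the response differed for 34, between the arrays labelled L1236 and UHO-1 for 26, between the arrays labelled L1236 and SUP-HD1 for 31, and between UHO-1 and SUP-HD1 for 3.

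Among genes with values given on the arrays, the adjusted p of the F test, the arrays labelled L1236 included, was 1.99e-07 for KIF20A, 3.03e-07 for KIF11, 3.18e-07 for PLK1, 3.51e-07 for FOXM1 and 4.31e-07 for CDC20. It was 5.59e-07 for ASPM, 6.41e-07 for AURKB and 9.69e-07 for ANLN. For CCNF it was 3.62e-06, for MKI67 6.72e-06, for SPC25 7.34e-06, for CCNB1 1.63e-05 and for BUB1 2.54e-05. CENPE had 0.00179, BUB1B 0.00476 and HMMR 0.0104. Groups held 2 arrays each, too few to look for single outlying arrays.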

How the results depend on the processing

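For the named genes, 180 results under 5490 alternatives gave 5239 on the same side of the threshold and 195 that lost the call. A further 54 gained a call, and 2 called results changed sign. The 2 were the average responses of CCNB1 (0.035, adjusted p = 0.541) and KIF20A (0.023, adjusted p = 0.7) without L428. The 5239 include results without a call in either fit. They also include fits without an array of another line, which leave a line's response itself unchanged. Their number is therefore no measure of how stable the calls were. Changes of sign were not counted for results without a call in the main fit. The average of ASPM, for example, was 0.166 without L428 and -0.141 without the arrays labelled L1236. Counts of members that moved by over 1.5 times were these. Without a trend, KM-H2 had 3 rises, and SUP-HD1 had 0 rises and 0 falls. With median centring SUP-HD1 had 0 rises and 1 fall, and UHO-1 exceeded SUP-HD1 in response for 1 gene and in vehicle level for 3. With quantile normalisation UHO-1 had 12 falls and SUP-HD1 0 rises. With cyclic loess L428 had 2 rises and UHO-1 11 falls. Under both of these, the response of UHO-1 was below that of SUP-HD1 for 2 genes, and vehicle levels labelled L1236 were below UHO-1 for 2. With no floor SUP-HD1 had 0 rises, and UHO-1 exceeded SUP-HD1 in response for 1. The falls of SUP-HD1 numbered 4 with its lot fitted alone and 3 with its arrays alone. The average had 11 rises and 2 falls without L428, 1 rise without UHO-1 and 31 falls without the arrays labelled L1236. Opposite calls numbered 7 in the 4 lines other than L1236, a count added after the data were seen.

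The cause of these shifts was not tested, beyond that fewer arrays or lines enter some of them. Arrays with the same replicate number did not deviate together in every line: the correlations of their deviations were 0.294 in UHO-1, 0.282 in SUP-HD1, 0.037 in L428, -0.082 in KM-H2 and -0.557 in L1236. With the replicate number as a block, SUP-HD1 had 4 falls, and UHO-1 exceeded SUP-HD1 for 1 response and 3 vehicle levels. No other count moved by over 1.5 times with the block. The block also ended the calls of FOXM1 on the arrays labelled L1236 (adjusted p = 0.0604) and in SUP-HD1 (0.075), of SPC25 in SUP-HD1 (0.0685) and of CENPE in UHO-1 (0.0564), and gave BUB1B one in UHO-1 (0.0399).

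Leaving out 1 array at a time, rises numbered 2 to 7 in KM-H2, 18 to 32 labelled L1236, 1 to 4 in UHO-1 and 0 to 1 in SUP-HD1. Falls numbered 2 to 3 in KM-H2, 34 to 38 in L428, 3 to 8 in UHO-1 and 0 to 8 in SUP-HD1. The average had 4 rises and 14 to 18 falls. The F test called 38 to 42, and opposite calls numbered 19 to 29. Response differences numbered 30 to 35 for KM-H2 over L428, 18 to 26 for L1236 over UHO-1, 25 to 33 for L1236 over SUP-HD1, and 0 to 8 above and 1 below for UHO-1 against SUP-HD1. Vehicle levels differed for 7 to 10 above and 20 to 24 below (KM-H2 against L428), 32 to 36 and 1 (L1236 against UHO-1), 18 to 22 and 8 to 12 (L1236 against SUP-HD1), and 3 to 6 and 27 to 32 (UHO-1 against SUP-HD1).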
